A study of Monodelphis domestica with 2 samples.

Results

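IT_C is a subclass of intratelencephalic (IT) glutamatergic neurons of a marsupial, Monodelphis domestica (the gray short-tailed opossum), taken from its primary visual cortex, V1. Its members were the nuclei that carried the subclass label IT_C in the deposited annotation, and there were 2499 of them among 14462 IT nuclei, 20150 glutamatergic nuclei and 32764 labelled nuclei. The samples were 2 adult males of 1 group from a laboratory colony, animal 1 aged 1.5 years and animal 2 aged 2 years, with no treatment named in the labels. V1 of both hemispheres was pooled within an animal, and each nuclear suspension gave 2 libraries, 1A and 1B from animal 1 and 2A and 2B from animal 2. Libraries of an animal are technical repeats, so the animal was the replicate (n = 2). A different experimenter handled each animal, so that animal, age and handling cannot be told apart. The authors drew the labels by clustering the same values that are compared here. The adjusted p-values below set the size of a difference against the spread of summed counts between the animals. They are therefore no independent test that IT_C is a class of its own.

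IT neurons are the cortical excitatory neurons whose axons stay within the telencephalon, and they connect cortical areas, both hemispheres and the striatum. They are set apart from pyramidal tract neurons of layer 5 (L5PT), near-projecting neurons of layer 5 (L5NP), corticothalamic neurons of layer 6 (L6CT) and the deepest cortical neurons (L6b). In rodents, IT neurons are graded by layer, with CUX2 in upper layers, RORB in layer 4 and ETV1 in layer 5. The other IT subclasses of the annotation are named IT_A, IT_B and IT_D, with no layer in the name.

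The 4 libraries held 55625042 to 69706055 UMIs (unique molecular identifiers, each standing for 1 captured RNA molecule). By library, 584 (1A), 540 (1B), 582 (2A) and 793 (2B) of the nuclei were IT_C. Its share of glutamatergic nuclei was 12.5% (exact 95% interval 11.6 to 13.5) for 1A, 12.2% (11.2 to 13.2) for 1B, 12.6% (11.7 to 13.6) for 2A and 12.3% (11.5 to 13.1) for 2B. The 4 intervals overlapped, and the share was 12.4% ± 0.0386 (SD, n = 2) over the animals. Among IT nuclei the share was 17.3% ± 0.586 (SD, n = 2). The libraries of an animal did not differ in the share of glutamatergic nuclei by Fisher's exact test, two-sided (p = 0.61 in animal 1 and 0.619 in animal 2). Intervals here and below cover counting error only.

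Within IT_C the annotation held the types IT_C_1 and IT_C_2, and these were spread very unevenly over the animals. IT_C_1 made up 26.2% (22.7 to 29.97) of IT_C for library 1A, 23.7% (20.2 to 27.5) for 1B, 72.7% (68.9 to 76.3) for 2A and 69.7% (66.4 to 72.9) for 2B. Libraries of an animal were alike (Fisher's exact test, two-sided, p = 0.37 and 0.253), and the animals did not overlap. The types also differed in depth. The median nucleus of IT_C_1 held 2694, 2768, 6183 and 5143 UMIs in libraries 1A, 1B, 2A and 2B, and that of IT_C_2 held 9298, 9091, 10478 and 8588 UMIs. Every library was shallower in IT_C_1 than in IT_C_2. Among IT_C nuclei over 8000 and up to 16000 UMIs, IT_C_1 made up 3.87% (2.38 to 5.91) in animal 1 and 49.8% (45.0 to 54.5) in animal 2. At up to 2000 UMIs the shares were 98.8% (93.5 to 99.97) and 91.7% (80.0 to 97.7), with overlapping intervals, and over 2000 and up to 4000 UMIs they were 87.8% (81.1 to 92.7) and 97.7% (95.1 to 99.2), lower in animal 1. Over 4000 and up to 8000 UMIs they were 16.4% (12.5 to 20.9) and 77.3% (73.6 to 80.7), and over 16000 UMIs 4.92% (1.03 to 13.7) and 36.2% (23.99 to 49.9). Scrublet, which scores nuclei for likely doublets, had called 70 of the 2499 IT_C nuclei (16, 5, 12 and 37 by library), and these were kept. One cell barcode was shared by IT_C nuclei of different libraries, in 1B and 2B, out of 16 to 30 barcodes shared by any pair of libraries.

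**Figure D1:**
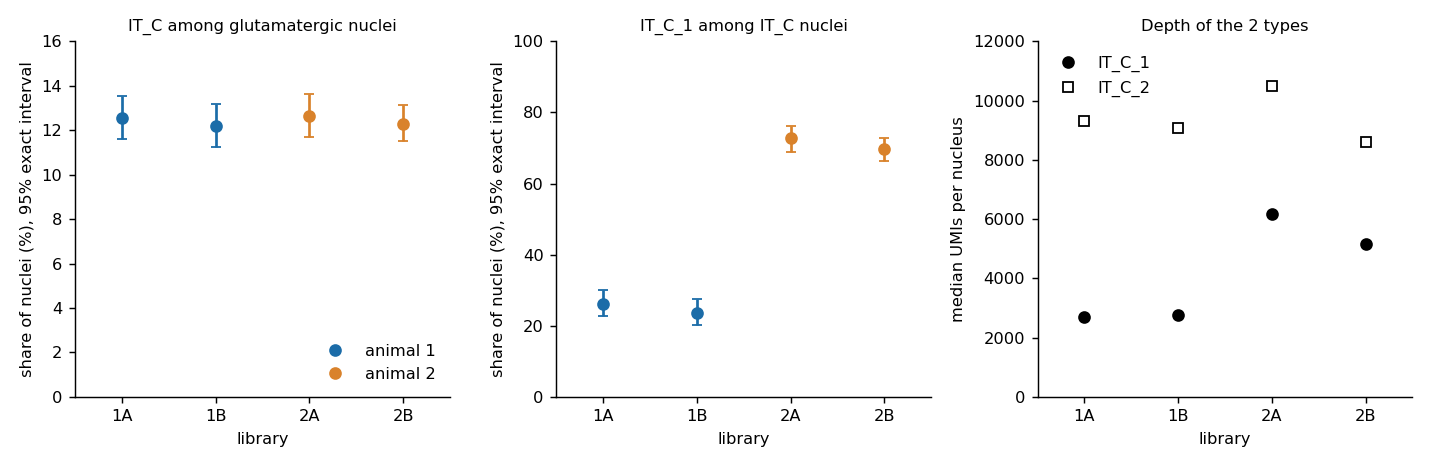
Share of IT_C among glutamatergic nuclei, share of IT_C_1 among IT_C nuclei (both in percent, with exact 95% intervals) and median UMIs per nucleus of the 2 types, by library. The share of IT_C lies between 12.2% and 12.6% in all 4 libraries, while IT_C_1 is at 23.7% to 26.2% of IT_C in animal 1 and 69.7% to 72.7% in animal 2.

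The label was checked against markers. The glutamatergic markers with a symbol in the files summed to 1761 and 1726 CPM (the UMIs of a gene scaled to a common total over the summed nuclei) in IT_C of animals 1 and 2, against 1287 to 1988 and 1252 to 1782 CPM in the other glutamatergic subclasses. Among them the glutamate transporter SLC17A6 was lower in IT_C than in the other 7, while SV2B, NEUROD2, NEUROD6 and TBR1 were not called. When the animal was added to the fit as a block, which takes out shifts that the subclasses of an animal share, SV2B and NEUROD6 were called higher (edgeR adjusted p = 0.0101 and 0.0117). SV2B, a synaptic vesicle protein, stood at 966, 984, 947 and 957 CPM in libraries 1A, 1B, 2A and 2B. Markers of other cell types were low. The summed level of 6 GABAergic markers was 13.7 and 17.0 CPM in IT_C of animals 1 and 2, against 7.04 to 27.9 CPM and 19.3 to 26.2 CPM in the other glutamatergic subclasses of animals 1 and 2. In the GABAergic subclasses these 6 summed to at least 1421 and 1377 CPM. The 5 microglial markers summed to 3.12 and 2.47 CPM in IT_C, and the 4 oligodendrocyte markers to 89.8 and 87.9 CPM, most of it MBP.

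The 5 astrocyte markers summed to 496.5 and 684.4 CPM in IT_C, of which SLC1A2, the glutamate transporter GLT-1, gave 484 and 665 CPM. The defining astrocyte genes AQP4 and GFAP were at 2.15 and 1.78 CPM and 1.08 and 0.888 CPM. SLC1A2 was higher in IT_C than in the mean of the other 7 subclasses (log2 fold change 0.92 ± 0.20, SE; edgeR adjusted p = 0.00733), though it was higher still in L5NP (543 and 683 CPM) and L6b (547 and 714 CPM). AQP4 (log2 fold change 0.20, adjusted p = 0.904 in the same edgeR fit) was not called.

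The genes that mark IT_C were RORB, a nuclear receptor of layer 4 neurons in rodents, ETV1, an ETS transcription factor, LYN, a Src-family kinase, and IL1RAPL2, a synaptic adhesion protein of the interleukin-1 receptor family. All 4 were higher in IT_C than in the mean of the other 7 glutamatergic subclasses, but IL1RAPL2 alone was highest there. IL1RAPL2 stood at 33.01, 23.4, 37.5 and 31.8 CPM in IT_C of libraries 1A, 1B, 2A and 2B, and reached at most 2.99 and 4.72 CPM in L5NP elsewhere in the class. Each library of IT_C was thus far above any other glutamatergic subclass. RORB was at 845, 844, 754 and 788 CPM in IT_C, below IT_B (1344 and 1593 CPM in animals 1 and 2) and close to L5NP (779 and 674 CPM). ETV1 was at 79.8, 76.04, 80.8 and 75.5 CPM in IT_C, and was higher in L5NP (229.6 and 270.3 CPM) and L6b (142 and 141 CPM). LYN was at 37.6, 38.02, 32.4 and 34.2 CPM in IT_C. It was higher in L5NP (84.9 and 35.4 CPM), and in L6b (56.3 and 25.8 CPM) it was above IT_C in animal 1 and below it in animal 2. Against the non-IT subclasses alone ETV1 was not called (-0.14 ± 0.18 on the log2 scale, edgeR adjusted p = 0.716), nor was LYN (log2 fold change 0.78 ± 0.29, SE; edgeR adjusted p = 0.0932). With the animal as a block LYN was called higher than in the non-IT subclasses (0.80 ± 0.17, edgeR adjusted p = 9.79e-04), while ETV1 was not. Against the other 3 IT subclasses the log2 fold changes were 1.86 for RORB, 3.65 for ETV1, 4.76 for LYN and 5.95 for IL1RAPL2. ETV1, LYN and IL1RAPL2 had no UMI in IT_D of animal 1, whose total allows up to 5.28 CPM, so these 3 fitted values depend on the count added there.

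Most single nuclei showed few of these RNAs. After each nucleus was thinned to 2000 UMIs, which left out 132 shallower IT_C nuclei, RORB had a UMI in 64.7% (62.8 to 66.7) of IT_C nuclei, ETV1 in 14.5% (13.1 to 15.97), IL1RAPL2 in 6.46% (5.51 to 7.53) and LYN in 6.17% (5.23 to 7.21). Without thinning the shares were 81.8%, 37.9%, 18.0% and 15.8% at a median of 7211 UMIs. In Pvalb interneurons, at a median of 7116 UMIs, the thinned shares were 2.25% for RORB, 6.99% for ETV1, 0.0999% for IL1RAPL2 and 0.15% for LYN. All 4 shares of IT_C lay above those of Pvalb nuclei, but 3 of them did not lie above every glutamatergic subclass. At the same depth RORB had a UMI in 90.0% of IT_B nuclei and 63.1% of L5NP nuclei. ETV1 had one in 37.1% of L5NP nuclei and 23.9% of L6b nuclei, and LYN in 10.5% of L5NP nuclei. The other glutamatergic subclasses lay below IT_C for these 3 genes. IL1RAPL2 was seen in 0.0613% of IT_A nuclei, 0.058% of IT_B nuclei and 0.28% of L5NP nuclei at the same depth, and in 1.55% of Vip interneurons.

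**Figure D2:**
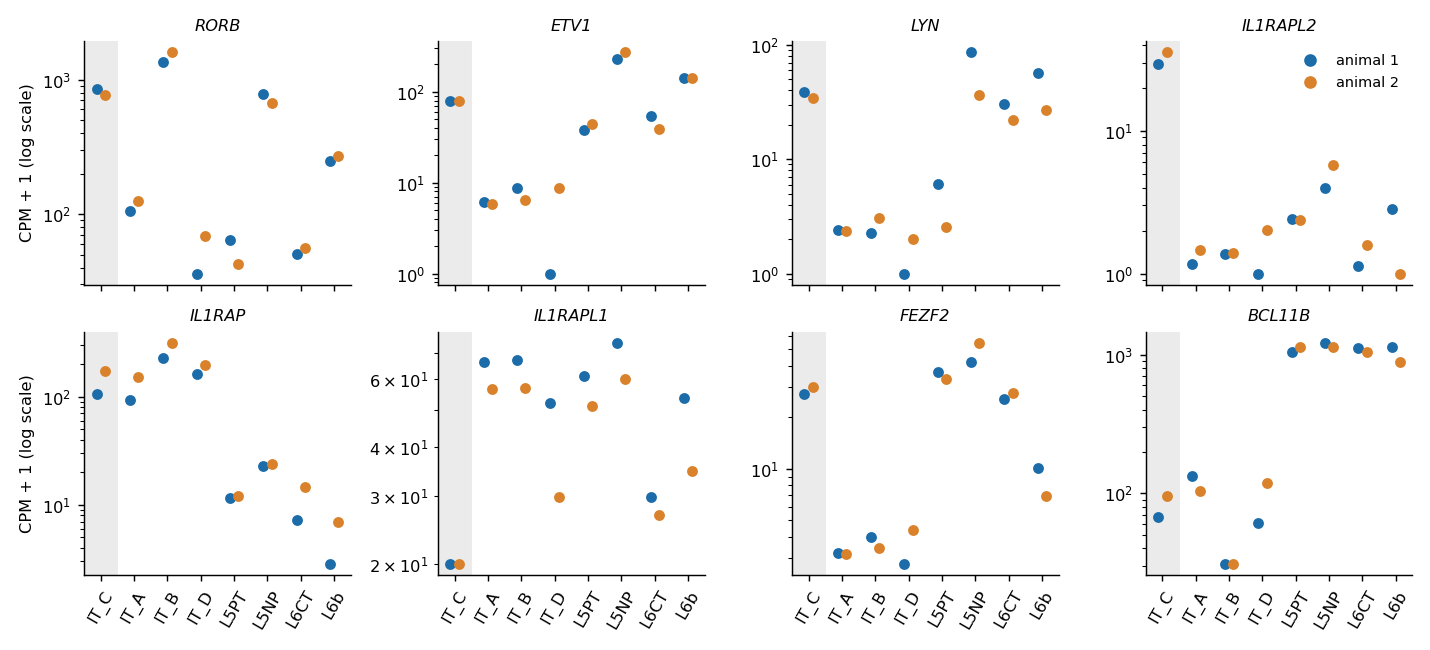
Level of 8 genes in each glutamatergic subclass (CPM + 1, log axes that differ between panels), with 1 point per animal and IT_C shaded. IL1RAPL2 is highest and IL1RAPL1 lowest in IT_C, while RORB is higher in IT_B, ETV1 in L5NP, and BCL11B in all 4 non-IT subclasses.

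The label of IT_C was carried from animal to animal. The authors drew it by clustering these values in nuclei of both animals together, so high agreement here is no independent test of the label. Each IT_C nucleus was given the label most frequent among its 15 nearest glutamatergic neighbours in the other animal. Of the IT_C nuclei of animal 1, 96.2% (94.9 to 97.2) received IT_C, and of those of animal 2, 97.1% (96.1 to 97.9). In animal 1 the rest went mainly to IT_A (25 nuclei) and IT_B (14), and in animal 2 to IT_A (21) and L5PT (11). The 11 nuclei of animal 2 that received L5PT were all of type IT_C_1, with a median of 3024 UMIs. All 15 neighbours were IT_C for 73.4% (70.7 to 76.0) of IT_C nuclei in animal 1 and 68.7% (66.1 to 71.1) in animal 2. In the other direction, 1.81% of IT_A nuclei of animal 1 and 1.91% of those of animal 2 received IT_C, and 3.81% (1.98 to 6.56) of IT_D nuclei of animal 2 did. In animal 1 that number was 0 of 58 IT_D nuclei (0 to 6.16%).

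Mean expression of IT_C was most like that of IT_B and IT_A. Across the 3000 most variable genes, Spearman's rank correlation with IT_B was 0.864 in animal 1 and 0.867 in animal 2, and with IT_A 0.854 and 0.859. L5PT followed at 0.819 and 0.821, above the remaining IT subclass, IT_D, at 0.743 and 0.818. The other values were 0.778 and 0.798 for L6CT, 0.773 and 0.772 for L5NP, and 0.702 and 0.707 for L6b. The order of IT_B, IT_A and L5PT was the same in both animals, and IT_D varied most. These values are across genes, which are not replicates, and share the same nuclei of IT_C. IT_D and L6b rest on few nuclei (58 and 56 in animal 1).

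IT_C was then set against the other glutamatergic subclasses with counts summed per animal. Against the mean of the other 7, 1126 of 17871 genes tested (6.3%) were higher in IT_C and 591 (3.31%) were lower, by edgeR's quasi-likelihood test at an adjusted p under 0.05. With the animal as a block the numbers were 1964 and 1081. Against the other 3 IT subclasses 966 genes (5.41%) were higher and 799 (4.47%) lower, or 1774 and 1519 with the block. Against the 4 non-IT subclasses 1523 (8.52%) were higher and 955 (5.34%) lower, or 2346 and 1546 with the block. Of the genes called against both the other IT and the non-IT subclasses, 408 were higher in IT_C than in each group and 218 were lower than in each. A further 111 were higher than in the other IT subclasses but lower than in the non-IT subclasses, and 144 were the reverse. With sums from IT_C_1 nuclei alone, 1748 genes were higher and 1255 lower against the other 7, and from IT_C_2 alone 1280 and 680. When labels for each of 5 parts of the genes were predicted from the remaining genes, 95.7% to 96.4% of IT_C nuclei were again given IT_C, and 1142 genes were higher and 583 lower. The prediction used the deposited labels of neighbouring nuclei, which were drawn with the held-out genes among the values. It therefore cannot free the comparison from the way the labels were drawn.

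Few genes stood far above or below every other subclass. Of the genes called higher, 305 (1.71% of those tested) stood above all 7 other subclasses in both animals, and 22 of these by at least 2-fold. Of the genes called lower, 138 (0.772%) stood below all 7 in both animals, 3 of them by at least 2-fold. The next subclass below IT_C was IT_B for 79 of the 305 genes in animal 1 and 76 in animal 2, more than for any other subclass.

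The gene furthest above the others was LMCD1, a LIM-domain protein that represses GATA factors. It stood at 28.3, 29.9, 23.9 and 23.7 CPM in IT_C of libraries 1A, 1B, 2A and 2B, and at most at 1.50 CPM in IT_B of animal 1 and 1.78 CPM in IT_A of animal 2 in the other glutamatergic subclasses. It had no UMI in L6b of either animal, whose small totals allow up to 5.45 and 5.95 CPM. Its level in IT_C was 12.00 times in animal 1 and 8.90 times in animal 2 that of the highest other subclass, with 1 CPM added to both. Its fitted log2 fold change of 6.03 ± 0.35 (SE; edgeR adjusted p = 1.58e-07) depends on the count added to subclasses at 0. LMCD1 was also present in endothelial cells (309.2 and 380.2 CPM), while the endothelial markers FLT1 and CLDN5 summed to 16.1 and 17.9 CPM in IT_C. IL1RAPL2 came next, and its level was 7.37 times in animal 1 and 6.20 times in animal 2 that of the highest other subclass, again with 1 CPM added, as in all such ratios below.

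DNAH7, an axonemal dynein heavy chain, was at 50.3, 56.9, 74.4 and 66.1 CPM in IT_C, against 14.05 and 26.4 CPM in IT_B. COL25A1, a transmembrane collagen of neurons, was at 950.1, 964, 625 and 689 CPM. L5PT held 399.7 and 329 CPM of it, IT_A 343 and 244 CPM, and L6CT 27.8 and 32.6 CPM. Its level in IT_C was 2.39 times in animal 1 and 1.999 times in animal 2 that of the next subclass. NDP, the secreted Wnt-pathway ligand Norrin, was at 22.3, 22.5, 19.4 and 22.2 CPM in IT_C. The next subclass was L5NP (11.1 and 10.8 CPM), and NDP lay at or under 2.05 CPM in the other 3 IT subclasses.

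The rest of the 15 genes exceeded the next subclass by 1.45-fold to 1.86-fold in the animal with the smaller ratio. They included PLXNA1, a semaphorin receptor (243 and 188 CPM in IT_C of animals 1 and 2, against 128 CPM in L5PT of animal 1 and 100.5 CPM in L5NP of animal 2), and MPP7, a scaffold protein of cell junctions (81.8 and 93.2 CPM against 43.6 and 49.6 CPM in L6b). LRRK2, the kinase mutated in familial Parkinson's disease, was at 42.7 and 46.5 CPM against 25.3 and 29.8 CPM in L5PT. COL5A2, a fibrillar collagen chain, was at 132 and 127 CPM against 39.9 and 83.3 CPM in L6b. HIP1, a clathrin adaptor, was at 49.5 and 48.3 CPM, and PLEKHG5, a guanine nucleotide exchange factor, at 140.3 and 123 CPM. DIPK2A stood at 34.7 and 27.03 CPM, DYDC1 at 71.5 and 71.04 CPM and KLHDC8A at 31.2 and 33.7 CPM. DOK5, an adaptor of receptor tyrosine kinases, was at 214 and 304 CPM and was not called against the other 3 IT subclasses alone (log2 fold change 0.70 ± 0.29, SE; edgeR adjusted p = 0.183) without the animal as a block. With the block it was called higher (0.73 ± 0.10, edgeR adjusted p = 9.79e-06). All of these genes kept their call and direction against the other 7 under each alternative that gave a test.

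Some of the leading genes have no symbol in the files. ENSMODG00000034523 was at 62.7, 61.9, 66.9 and 77.7 CPM in IT_C of libraries 1A, 1B, 2A and 2B, and at most 9.27 and 5.19 CPM in L5NP. ENSMODG00000038038 was at 44.2, 58.9, 113 and 114 CPM, higher in animal 2, with IT_A next (11.1 and 15.7 CPM). A symbol was given for 648 of the 1126 higher and 396 of the 591 lower genes.

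PPARGC1A, a transcriptional coactivator of mitochondrial biogenesis, stood furthest below the other subclasses. It was at 13.8, 10.3, 13.4 and 17.5 CPM in IT_C of libraries 1A, 1B, 2A and 2B, while IT_B, the next above, held 32.7 and 32.3 CPM and L5NP 157 and 179 CPM. The level in the lowest other subclass was 2.56 times in animal 1 and 2.01 times in animal 2 that in IT_C, and the log2 fold change against the other 7 was -2.63 ± 0.15 (SE; edgeR adjusted p = 3.65e-08). TRPS1, a GATA-type repressor, was at 132 and 96.1 CPM in IT_C against 212 and 168 CPM in L5PT. SNX25, a sorting nexin, was at 14.2 and 16.9 CPM against 32.2 and 27.5 CPM in L6CT. RDX (radixin, which ties actin to the membrane), ILDR2 and MSI2, an RNA-binding protein, were at 50.4 and 50.02, 45.7 and 46.6 and 115 and 119 CPM, each under all 7 other subclasses of its animal. KCNIP2, a subunit that speeds A-type potassium currents, was at 44.3 and 39.7 CPM against 59.9 and 55.5 CPM in L6b. With equal nuclei or other alternatives these 7 genes kept their direction, though RDX and KCNIP2 each lost the call in 1 of them.

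**Figure D3:**
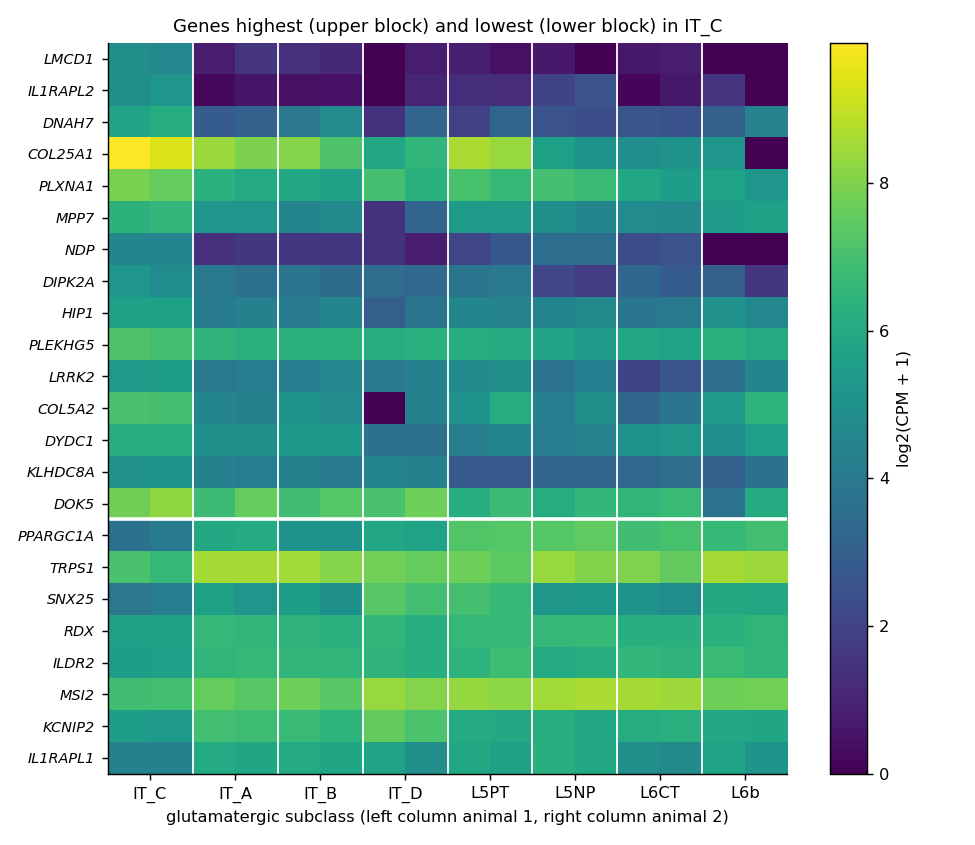
Level, as log2(CPM + 1), of the 15 named genes highest in IT_C (upper block) and the 8 lowest (lower block) in each glutamatergic subclass, with a column per animal. In the other 7 glutamatergic subclasses the measured level of LMCD1 is at most 1.78 CPM and that of IL1RAPL2 at most 4.72 CPM, though the small totals of L6b, and of IT_D in animal 1, allow more, whereas most of the other genes differ by less than 2-fold from the nearest subclass.

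SLC17A6, the vesicular glutamate transporter VGLUT2, was also lowest in IT_C. It stood at 10.1, 7.87, 8.95 and 7.90 CPM in the 4 libraries of IT_C, against 17.6 CPM in IT_D of animal 1 and 20.4 CPM in IT_A of animal 2 for the lowest of the others and 90.9 and 103 CPM in L5NP. It was at 10.7 and 8.66 CPM in IT_C_1 and 8.83 and 7.97 CPM in IT_C_2, so both types were low. The log2 fold change against the other 7 was -2.09 ± 0.19 (SE; edgeR adjusted p = 2.59e-06). At 2000 UMIs per nucleus, SLC17A6 had a UMI in 1.48% (1.03 to 2.05) of IT_C nuclei, 3.49% (3.13 to 3.87) of IT_A nuclei and 8.59% (7.31 to 10.01) of IT_B nuclei, beside 0.4% (0.173 to 0.786) in Pvalb interneurons.

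The 3 tested members of the interleukin-1 receptor family did not move alike. IL1RAPL1 and IL1RAPL2 are paralogous adhesion proteins that organise excitatory synapses, and IL1RAP is the shared accessory subunit of interleukin-1 receptors. Beside the high IL1RAPL2 given above, IL1RAPL1 stood at 21.3, 16.4, 19.8 and 18.2 CPM in IT_C of libraries 1A, 1B, 2A and 2B, below 28.7 and 25.7 CPM in L6CT (log2 fold change against the other 7 -1.32 ± 0.15, SE; edgeR adjusted p = 1.97e-05). IT_C had the highest IL1RAPL2 and the lowest IL1RAPL1 of the 8 subclasses in both animals. Both types showed it, with IL1RAPL2 at 27.2 and 34.8 CPM in IT_C_1 and 28.6 and 33.9 CPM in IT_C_2, and IL1RAPL1 at 17.5 and 19.8 CPM in IT_C_1 and 19.1 and 17.7 CPM in IT_C_2. IL1RAP was at 103, 105, 169 and 174 CPM in IT_C, between IT_A (92.02 and 151 CPM) and IT_B (226 and 309 CPM), and at or below 22.6 CPM in the non-IT subclasses. Its log2 fold change was 3.88 ± 0.29 (SE; edgeR adjusted p = 2.68e-07) against the non-IT subclasses and -0.44 ± 0.27 (adjusted p = 0.442) against the other IT subclasses. With the animal as a block the latter was called lower (-0.43 ± 0.10, edgeR adjusted p = 0.0025).

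Of the 10 tested ETS factors, ETV1 was higher and ETV6 lower in IT_C than in the other 7, and 8 were not called. Over all genes 6.3% were higher and 3.31% lower. ETV6, a repressor of the family, was at 124 and 119.8 CPM in IT_C of animals 1 and 2 with a log2 fold change of -0.43 ± 0.10 (SE; edgeR adjusted p = 0.0112), and lost its call in 2 alternatives. ETV5, a close relative of ETV1, was at 107 and 177 CPM (log2 fold change 0.42, adjusted p = 0.505), and ETS1 at 16.04 and 10.3 CPM (0.69, adjusted p = 0.0659; called in 8 alternatives). Both were called higher with the animal as a block (edgeR adjusted p = 2.47e-04 and 0.00813). ETV4, ELF1, ELF2, ELK3, ELK4 and ETS2 had log2 fold changes of -0.18 to 0.80. Of the 5 tested Src-family kinases, LYN and FYN were higher, beside 6.3% of all genes. FYN, broadly expressed in neurons, was at 558, 579, 525 and 531 CPM in the libraries of IT_C, and L5NP was near it at 579 and 479 CPM (log2 fold change against the other 7 0.43 ± 0.08, SE; edgeR adjusted p = 0.00275). FYN lost its call in 2 alternatives. SRC was at 54.6 and 60.4 CPM in IT_C and was not called (0.11), nor were BLK and LCK, both under 1 CPM there.

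Genes known from rodents as markers of layers and projection classes were mixed in IT_C. For upper layers, CUX2 was at 16.1, 28.8, 43.5 and 40.1 CPM in IT_C, against 362 and 490.2 CPM in IT_A, 343 and 531 CPM in IT_B and 482 and 679 CPM in IT_D (log2 fold change against the other IT subclasses -3.95 ± 0.39, SE; edgeR adjusted p = 7.07e-06). Its level in IT_C was close to that in L5PT (17.1 and 33.9 CPM). CUX1 was likewise lower than in the other IT subclasses (-1.78). Of the layer 4 list, RORB and KCNH5, an ether-a-go-go potassium channel, were higher and WHRN and CUX2 lower. KCNH5 was at 683 and 587 CPM in IT_C, behind IT_B with 1207 and 1356 CPM.

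For layer 5, FEZF2, the factor that specifies pyramidal tract neurons, was at 25.2, 28.1, 27.7 and 30.5 CPM in IT_C. The other IT subclasses were at or below 3.39 CPM, and L5PT at 35.9 and 32.7 CPM. IT_C was thus higher than the other IT subclasses (log2 fold change 3.33 ± 0.16, SE; edgeR adjusted p = 1.27e-08). Its difference from the non-IT subclasses was not called (0.29 ± 0.16, adjusted p = 0.292). BCL11B (CTIP2), a second factor of subcortical projection neurons, was not high in IT_C. It was at 71.2, 60.97, 90.6 and 96.8 CPM, against 1044 and 1144 CPM in L5PT and 133 and 103 CPM in IT_A. Against the non-IT subclasses its log2 fold change was -3.70 ± 0.22 (SE; edgeR adjusted p = 2.93e-08). Against the other IT subclasses it was not called (0.15 ± 0.18, adjusted p = 0.775). CRYM, also on the L5PT list, was at 26.04 and 23.4 CPM in IT_C and 26.4 and 25.3 CPM in IT_A. The layer 6 factors FOXP2 (45.4 and 50.7 CPM in IT_C against 1554 and 1539 CPM in L6CT) and TLE4 (57.6 and 73.9 against 467 and 513 CPM) were lower in IT_C than in the other 7. Against the other IT subclasses FOXP2 was higher in IT_C (log2 fold change 0.51 ± 0.14, SE; edgeR adjusted p = 0.0312), while TLE4 was not called (0.25). The other 2 tested L6CT markers, SYT6 and ZFPM2, were not called against the other 7 (-0.47 and 0.26), and were higher than in the other IT subclasses (1.35 for both) and lower than in the non-IT subclasses (-1.84 and -0.55). Of the layer 5 IT list, PTPRM, DEPTOR and FOXO1 were not called against the other 7 (-0.27, 0.07 and 0.44).

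Of 62 transcription factors tested, 16 were higher in IT_C than in the other 7 and 10 lower, with a median log2 fold change of 0.13 beside 0.06 over all genes. The share called higher in this list, and in those below, is to be read against 6.3% of all genes higher and 3.31% lower. Counts with the animal as a block are to be read against 1964 higher and 1081 lower of all 17871 genes in that fit. RXRG, a retinoid X receptor, had the largest increase (log2 fold change 3.15 ± 0.30, SE; edgeR adjusted p = 8.72e-06). It was at 31.8, 34.4, 30.5 and 35.5 CPM in IT_C, near IT_A (32.97 and 29.02 CPM) and L5PT (26.1 and 44.4 CPM), and was at most 3.51 CPM in IT_B. L6b held no UMI of RXRG, so its fitted fold change depends on the count added there. LHX2, LMO4, POU3F3, NR2F1 and THRB were higher by 0.90 to 1.48, and GLIS3, LMO3 and SOX5 lower, at -1.57 to -0.94.

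Cell adhesion genes were the largest list, with 86 tested, 20 higher and 13 lower (median log2 fold change 0.13). After IL1RAPL2, the largest increase was in NTNG2 (netrin-G2, a presynaptic adhesion protein), at 144, 143, 181 and 177 CPM in IT_C (log2 fold change 2.23 ± 0.19, SE; edgeR adjusted p = 1.63e-06). It was far higher in IT_D (739 and 639 CPM) and at most 9.15 CPM in L6CT. CNTN6, CDH8, CDH12, PCDH19 and SDK1 were higher by 1.48 to 1.72. CNTNAP4, a neurexin-like protein, was lower, at 49.9 and 42.1 CPM in IT_C against 996 and 906 CPM in L6CT, but near IT_A (57.3 and 33.5 CPM). SLITRK6 had the lowest log2 fold change (-3.43) at a level of 0.215 and 0 CPM, which is under the 3 UMIs that bound a level, so the fitted value is no measure of the size. It lost its call in 6 alternatives.

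Of 55 axon guidance genes, 8 were higher and 8 lower (median 0.04), or 13 and 9 with the animal as a block. The plexins PLXND1 and PLXNA1, receptors for semaphorins, were higher. PLXND1 was at 142, 134, 104 and 93.3 CPM in IT_C (log2 fold change 1.80 ± 0.20, SE; edgeR adjusted p = 2.24e-05), near IT_D (148 and 83.4 CPM) and L5PT (126 and 72.4 CPM). NRP1, the co-receptor neuropilin-1, was lower, at 9.28, 7.65, 8.31 and 14.3 CPM in IT_C against 558 and 507 CPM in L6CT and 30.3 and 41.4 CPM in IT_A (-2.43 ± 0.28, adjusted p = 2.53e-05). Against the other IT subclasses NRP1 was not called (-0.52, adjusted p = 0.387, edgeR). RGMA, a repulsive guidance molecule, was at 1.65, 1.12, 1.70 and 2.76 CPM in IT_C and at 113 and 75.3 CPM in IT_D, lower than in the other IT subclasses by a log2 fold change of -3.11 ± 0.30 (SE; edgeR adjusted p = 6.95e-06). SEMA6A, a transmembrane semaphorin, was at 3.01 and 3.35 CPM, against 19.97 and 20.5 CPM in IT_A and 27.8 and 40.2 CPM in IT_B.

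Among receptors for modulatory transmitters, 9 of 44 were higher and 3 lower, with a median log2 fold change of 0.36. The numbers were 12 and 5 with the animal as a block. OPRM1, the mu opioid receptor, was at 37.8, 38.9, 17.9 and 20.2 CPM in IT_C, higher in both libraries of animal 1 than in those of animal 2. The other IT subclasses held at most 6.27 CPM and L6b 49.02 and 41.7 CPM (log2 fold change against the other IT subclasses 3.15 ± 0.30, SE; edgeR adjusted p = 6.31e-06). OPRK1, the kappa opioid receptor, was at 18.6 and 15.5 CPM and lost its call in 6 alternatives. HTR1B, an inhibitory serotonin receptor, was at 9.28, 12.1, 3.84 and 9.003 CPM (log2 fold change 1.97 ± 0.32, SE; edgeR adjusted p = 6.91e-04), with IT_B near it (9.28 and 4.88 CPM). The serotonin receptors HTR2C, HTR1F and HTR7 were higher by 1.00 to 1.24 and HTR4 was lower, at -1.47. CHRNA4, a nicotinic acetylcholine receptor subunit, was at 6.03 and 7.30 CPM in IT_C against 231 and 208 CPM in L6b and 105 and 72.2 CPM in L6CT, and was not called against the other IT subclasses (edgeR adjusted p = 0.0627, or 0.00476 and lower with the animal as a block). ADRA1A, an alpha-1 adrenergic receptor, was at 1.08 and 1.38 CPM.

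Of 18 glutamate receptor genes, 4 were higher and 6 lower (median -0.10). GRIK3, a kainate receptor subunit, was at 892, 933, 734 and 715 CPM in IT_C against 90.6 and 63.1 CPM in IT_A and 47.7 and 48.1 CPM in IT_B (log2 fold change against the other IT subclasses 2.74 ± 0.13, SE; edgeR adjusted p = 1.27e-08), and its difference from the non-IT subclasses was not called (0.05). GRM3, a presynaptic group II receptor, was at 820.2 and 1049.8 CPM with IT_B above it at 893 and 1188 CPM. GRM7 was at 2192 and 1852 CPM and GRM8 at 5.92 and 8.98 CPM, the latter against 289.8 and 316 CPM in L6CT. Of 14 GABA and glycine receptor genes, 4 were higher. The block raised this number to 7. Of the 4, GABBR2 lost its call in 7 alternatives and GABRG1 in 6. GABRA5, the alpha-5 subunit of extrasynaptic GABA-A receptors, was at 449, 407, 352 and 359.8 CPM in IT_C, against 77.05 and 66.05 CPM in IT_A and 427 and 371 CPM in L6CT (log2 fold change against the other IT subclasses 1.74 ± 0.11, SE; edgeR adjusted p = 1.93e-07).

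Potassium and HCN channel genes had 11 of 56 higher and 6 lower (median 0.09), or 18 and 11 with the animal as a block. KCNH5 and KCNH7 led the higher genes, and KCNH7 was at 1719 and 1416 CPM in IT_C but higher in IT_B (3410.1 and 3373 CPM). KCNIP1 was at 16.4 and 16.4 CPM against 293 and 285 CPM in L6CT, and KCNK3, a background potassium channel, was lower (log2 fold change -1.64 ± 0.23, SE; edgeR adjusted p = 2.16e-04). Of 20 sodium and calcium channel genes, 2 were higher and 3 lower, or 4 and 3 with the block. CACNA1A, the P/Q-type calcium channel of presynaptic terminals, was at 968 and 1174 CPM in IT_C (log2 fold change 0.59 ± 0.12, SE; edgeR adjusted p = 0.00497), CACNA1E, the R-type channel, at 1044 and 1127 CPM (-0.49), and CACNA1H, a T-type channel, at 5.92 and 7.60 CPM against 101 and 136 CPM in L5PT. CACNA1E lost its call in 5 alternatives, CACNA1H in 4 and CACNA1A in 2.

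Of 46 synaptic release genes, 10 were higher and 6 lower (median 0.14). RAB3B, a Rab GTPase of synaptic vesicles, was at 22.7, 17.8, 26.6 and 21.9 CPM in IT_C and above all 7 other subclasses in both animals (log2 fold change 1.74 ± 0.21, SE; edgeR adjusted p = 4.86e-05). RAB3C was at 1147 and 1026 CPM, beside 1172 and 983 CPM in L5PT. SYT17 lost its call in 12 alternatives and SYT2 in 7. Of 22 activity-regulated genes, 4 were higher and 1 lower (median -0.01). NPTX2, a secreted pentraxin that clusters AMPA receptors, was at 4.75, 10.6, 7.25 and 6.25 CPM in IT_C, and was not called against the other IT subclasses (edgeR adjusted p = 1), with 9.11 and 12.8 CPM in IT_A and 2.13 and 3.34 CPM in IT_B. BDNF was at 17.7, 17.8, 35.8 and 35.6 CPM, with IT_A (56.9 and 82.2 CPM) and IT_D (153 and 159 CPM) above it. In BDNF the libraries of animal 2 were above those of animal 1, and it lost its call in 6 alternatives.

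**Figure D4:**
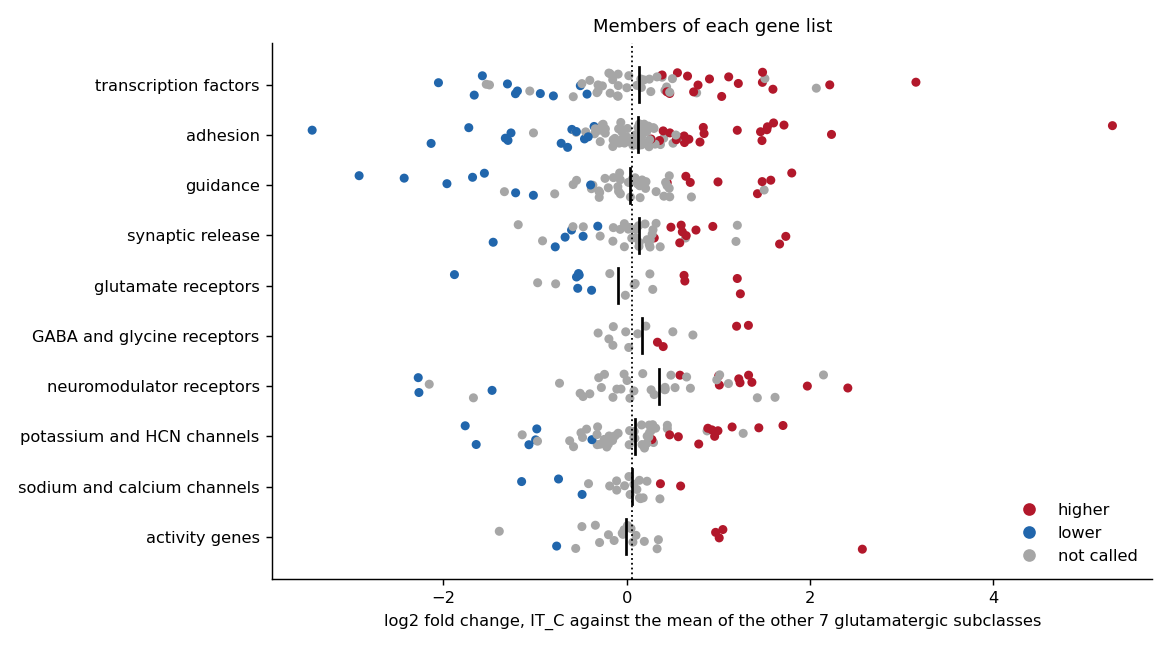
Log2 fold change of IT_C against the mean of the other 7 glutamatergic subclasses for the members of 10 gene lists, 1 point per gene, coloured by the edgeR call, with a bar at each list's median and a dotted line at the median of all genes (0.06). List medians lie between -0.10 and 0.36, while single members reach from -3.43 (SLITRK6) to 5.30 (IL1RAPL2).

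IT_C_1 and IT_C_2 were set beside each other after thinning each nucleus to 2000 UMIs, which left out 83 and 44 nuclei of IT_C_1 and 1 and 4 nuclei of IT_C_2 in animals 1 and 2. The types are clusters of these values, so no test was made. At full depth the neuron markers summed to 3834 and 4174 CPM in IT_C_1 of animals 1 and 2 and 5188 and 5103 CPM in IT_C_2. The GABAergic markers summed to 21.4 and 19.9 CPM in IT_C_1 and 12.7 and 12.5 CPM in IT_C_2. Scrublet had called 0.356% and 2.25% of IT_C_1 nuclei and 2.37% and 6.77% of IT_C_2 nuclei. Of 6290 genes at 20 CPM or more in the higher type of both animals, 140 (2.23%) were at least 2-fold higher in IT_C_1 in both animals and 209 (3.32%) in IT_C_2. Of these, 68 and 49 had a symbol.

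Genes higher in IT_C_1 led with BRD2, a bromodomain protein of chromatin, at 73.2 and 40.8 CPM in IT_C_1 of animals 1 and 2 against 20.2 and 11.4 CPM in IT_C_2. GOLGB1 (giantin), a Golgi tether, was at 505 and 336 CPM in IT_C_1 of animals 1 and 2 against 106 and 111 CPM in IT_C_2. MATCAP2, UACA, PORCN, the acyltransferase of Wnt ligands, and GYS1, glycogen synthase, were 2.78-fold to 5.36-fold higher in IT_C_1.

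Genes higher in IT_C_2 reached larger ratios. BCO1, a beta-carotene oxygenase, was at 0 and 3.76 CPM in IT_C_1 of animals 1 and 2 against 57.01 and 45.6 CPM in IT_C_2, where 0 UMIs in IT_C_1 of animal 1 allow up to 7.58 CPM. PRL, the hormone prolactin, was at 7.58 and 1.07 CPM in IT_C_1 of animals 1 and 2 against 79.6 and 40.5 CPM in IT_C_2. RNF128, a ubiquitin ligase, was at 27.8 and 30.6 CPM in IT_C_1 of animals 1 and 2 against 245 and 267 CPM in IT_C_2. The libraries did not overlap between the types for RNF128, which ranged from 23.8 to 33.3 CPM in IT_C_1 and from 241 to 305 CPM in IT_C_2. MPPE1 was 6.56-fold or more higher in both animals, with 1 CPM added to both levels. TIMP4 was at 5.05 and 1.61 CPM in IT_C_1 of animals 1 and 2 against 46.9 and 26.6 CPM in IT_C_2. TEX47 was at 2.53 and 2.68 CPM in IT_C_1 of animals 1 and 2 against 24.3 and 41.8 CPM in IT_C_2. The levels of TIMP4 and TEX47 in IT_C_1 of animal 1 were under the 7.58 CPM of 3 UMIs. PRL was at that floor in IT_C_1 of animal 1 and under the 1.61 CPM floor in animal 2.

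Of the 281 genes of the gene lists that were compared between the types, 4 (1.42%, beside 2.23% of all genes) were higher in IT_C_1 and 5 (1.78%, beside 3.32%) in IT_C_2. SYT13, SEMA4D, ADRA1D and ROBO1 were at least 2-fold higher in IT_C_1, and FLT1, LYPD1, KIRREL1, ELF2 and LYN in IT_C_2. At full depth LYN was at 15.5 and 22.4 CPM in IT_C_1 and 40.5 and 50.1 CPM in IT_C_2, RORB at 409 and 636 CPM in IT_C_1 and 898 and 979 CPM in IT_C_2, and ETV1 at 76.8 and 81.4 CPM in IT_C_1 and 78.2 and 72.7 CPM in IT_C_2. LMCD1 was at 12.6 and 17.3 CPM in IT_C_1 and 31.1 and 33.6 CPM in IT_C_2. IL1RAPL2 and ETV1 were thus close in the types of each animal, while LYN, RORB and LMCD1 were lower in IT_C_1.

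In IT_A, L5PT and L6CT, too, the type that was shallowest in animal 1 was more frequent in animal 2. IT_A_1 made up 22.8% of IT_A in animal 1 and 44.3% in animal 2, L5PT_2 17.9% and 51.3% of L5PT, and L6CT_2 11.5% and 40.3% of L6CT. Their median depths were 4049, 3026 and 2889 UMIs in animal 1 and 8384, 5882 and 4663 UMIs in animal 2. The genes that separated the types of IT_C were followed there, a comparison chosen after the types had been seen. Of the 140 genes higher in IT_C_1, 138 were higher in IT_A_1 than in the rest of IT_A in both animals (98.6%, beside 40.05% of all 6290 genes), 128 in L5PT_2 (91.4%, beside 30.8%) and 129 in L6CT_2 (92.1%, beside 35.6%). Of the 209 genes higher in IT_C_2, 204 were lower in IT_A_1 (97.6%, beside 35.2%), 187 in L5PT_2 (89.5%, beside 38.6%) and 197 in L6CT_2 (94.3%, beside 34.2%). By at least 2-fold in both animals, 174 (83.3%), 148 (70.8%) and 151 (72.2%) of these 209 genes were lower in IT_A_1, L5PT_2 and L6CT_2, beside 3.40%, 3.35% and 2.70% of all genes. Of the 140 genes higher in IT_C_1, the numbers higher at 2-fold in these types were 10 (7.14%), 56 (40%) and 44 (31.4%), beside 0.27%, 2.26% and 0.97% of all genes. In animal 2, 2 other types of IT_A were shallower than IT_A_1. Animal moved with IT_C_1, IT_A_1, L5PT_2 and L6CT_2, as did depth except for IT_A_1 in animal 2, and their part in these differences was not tested.

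**Figure D5:**
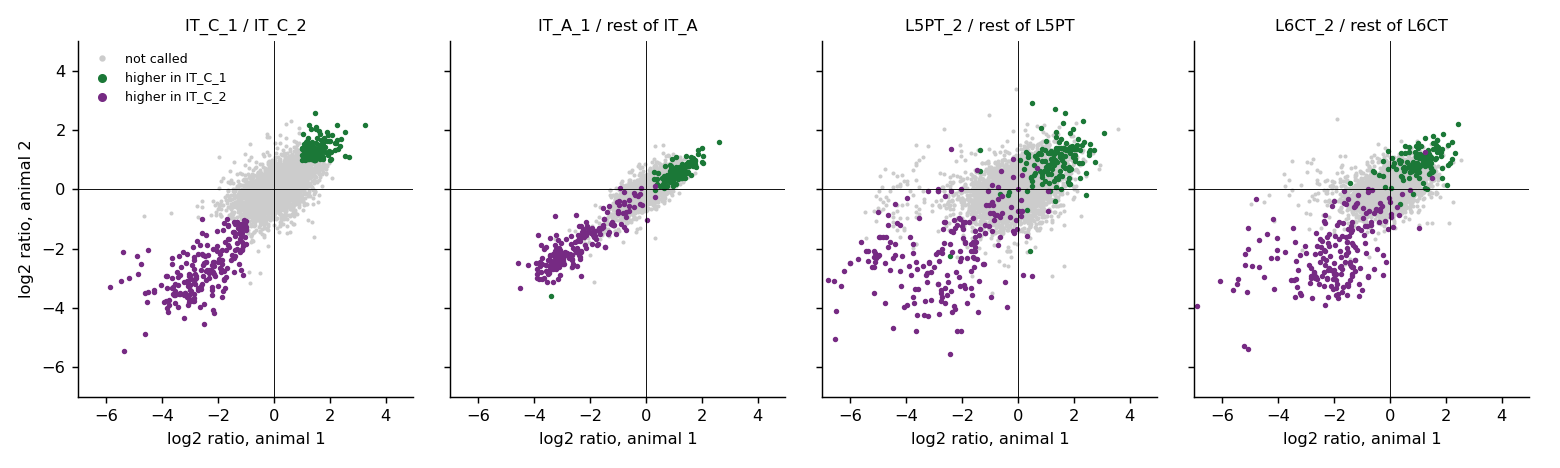
Log2 ratio between types in animal 1 (x axis) and animal 2 (y axis) at 2000 UMIs per nucleus, 1 point per gene, for IT_C_1 over IT_C_2 and for IT_A_1, L5PT_2 and L6CT_2 over the rest of their subclass. The 140 genes higher in IT_C_1 lie mostly in the upper right of every panel and the 209 higher in IT_C_2 mostly in the lower left.

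Between the animals, 91 of 6333 genes in IT_C (1.44%) were at least 2-fold apart with no overlap of their libraries, 68 higher in animal 1 and 23 in animal 2. With 1 animal on each side there was no test. Ratios between the animals or libraries were taken with 1 CPM added to both levels. On that scale 0 of these 6333 genes were 2-fold apart between the libraries of an animal, in either animal. Of the 91 genes, 45 were also among those that differed between the types, whose shares differed between the animals. Between the types, 349 of the 6290 genes compared there differed. Within both types 61 of the 68 and 21 of the 23 kept their direction, and 12 and 7 stayed at 2-fold or more in each type. For these counts the share of all 6333 genes is not given here.

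KLHL1, a brain actin-binding kelch protein, was at 43.7, 53.3, 6.18 and 7.17 CPM in IT_C of libraries 1A, 1B, 2A and 2B. The level in animal 2 was 0.227 and 0.187 times that in animal 1 within IT_C_1 and IT_C_2, and 0.233 to 4.39 times in the other 7 subclasses, with a median of 0.852. FERMT1 (kindlin-1) was at 20.8, 22.5, 2.34 and 2.57 CPM, TMEM255A at 23.3, 22.3, 6.39 and 4.78 CPM, and both were lower in animal 2 in at least 6 of the other 7 subclasses. PRL and BCO1, also higher in animal 1, were at 0.296 and 0.345 times in animal 2 over all IT_C nuclei, and both also differed between the types, which the animals held in different shares.

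Higher in animal 2 were NAALAD2, a peptidase, at 7.63, 9.90, 39.2 and 42.3 CPM, and ANGPT1 (angiopoietin-1) at 25.4, 21.1, 91.6 and 101 CPM. ANGPT1 was 4.41-fold and 5.11-fold higher within IT_C_1 and IT_C_2, and 1.17-fold to 8.35-fold higher in the other 7 subclasses. B3GAT2, SYK, a tyrosine kinase, and TNS3 were 2.82-fold to 3.09-fold higher. TNS3 was 1.17-fold higher within IT_C_1 and 2.68-fold within IT_C_2. Of the 91 genes, 49 had the same direction in all 7 other subclasses. The share of all 6333 genes that did so is not given here, so the 49 cannot be set against it.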

How the data were processed

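Nuclei of V1 from 2 animals were profiled by droplet RNA-seq in 4 libraries, 2 per animal. The deposited files hold raw UMI counts per gene and nucleus. The authors aligned reads to the ASM229v1 genome with Ensembl gene models extended at the 3′ end, counting introns, with Cell Ranger, which is 6.1.1 in the submitters' processing notes and 7.1.0 in the matrix headers. Subclass and type labels come from the deposited annotation, whose doublet scores are a fraction, from the authors' Scrublet run. Levels are CPM, so they are not corrected for gene length, and genes are compared between subclasses, not with each other. Spatial data were not analysed here.

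Counts were summed per subclass and animal and tested with edgeR 4.0.16 (R 4.3.3; quasi-likelihood, Benjamini-Hochberg adjustment over all genes tested). DESeq2 1.42.0, other filters and thinning, and the removal of Scrublet's doublet calls were alternatives, as were the types alone, which were added after seeing the data. With 2 animals, leaving out an animal left no test. The animal as a replicate block was a further alternative: subclasses of an animal share their suspension, and deviations of subclasses in the same animal correlated at 0.0229 to 0.577 (median 0.251). Named genes were those with a symbol, 20 CPM and a call that stood highest or lowest in IT_C in both animals, ranked by the ratio to the next subclass with 1 CPM added (15 highest and 8 lowest; for the lowest, 20 CPM in the lowest other subclass), the markers, the tested ETS, Src and interleukin-1 receptor genes, up to 4 called members of each list by absolute fold change, and the 6 and 5 largest ratios each way between types and animals. Some genes are not reported here. Members and lists were chosen with earlier results of these data known. Marker symbols SLC17A7, MOBP, PECAM1, MDGA1, SCNN1A, ZNF804B, FAM84B, HS3ST4, NXPH1 and NXPH4 were not found in the files. On simulated counts with known changes for the comparison with the other 7, the test found 26 of 67 genes at 1.5-fold, 58 of 67 at 2-fold and 66 of 66 at 4-fold, with 13 false calls among 16933 genes.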

Additional observations from a re-analysis of the deposited data

How the results depend on the processing

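The number of genes called depended on the fit and on the nuclei used. Against the other 7 subclasses, where 1126 genes were higher and 591 lower, the replicate block gave 1964 and 1081, equal nuclei per subclass 353 and 177, IT_C_1 nuclei alone 1748 and 1255, and thinning to 3000 UMIs 375 lower. Against the other 3 IT subclasses (966 and 799) the block gave 1774 and 1519, equal nuclei 296 and 231, and IT_C_1 alone 1199 lower. Against the non-IT subclasses (1523 and 955) the block gave 2346 and 1546, equal nuclei 502 and 338, thinning 611 lower, and IT_C_1 alone 1718 lower. With equal nuclei fewer counts entered. The cause of the other shifts was not tested. With IT_C_1 alone the log2 fold change against the other 7 reversed for CUX1 (0.18) and LYPD1 (-0.23). Of the other named-gene values, 1723 kept direction and, where there was a test, the call. A further 97 lost and 10 gained the call, and 15 moved. Values from a single animal had no test and were judged by direction alone. SYT17 lost it in 12 alternatives, LYPD1 in 10, CUX1 and JUN in 6 and RGMA in 2. Among listed and named genes the replicate block took away no call in any of the 3 comparisons and added 64 against the other 7, 83 against the other 3 IT and 47 against the non-IT subclasses. Spearman's rank correlation of IT_C with IT_A, IT_B, IT_D, L5PT, L5NP, L6CT and L6b was 0.768, 0.789, 0.666, 0.711, 0.654, 0.652 and 0.603 over 1000 genes, 0.896, 0.903, 0.835, 0.872, 0.836, 0.851 and 0.775 over more genes, and 0.755, 0.765, 0.709, 0.733, 0.691, 0.714 and 0.661 with equal nuclei. Label transfer gave 95.3% with 50 components and 92.0% at 1000 UMIs. The 349 genes that differed between the types became 616 at 10 CPM, 159 at 50 CPM and 625 to 1149 with a single animal, and the 91 between the animals 165, 38 and, within IT_C_2, 48. Leaving out an animal gave no test in edgeR. With 2 animals, of different age and handled by different experimenters, p-values measure the spread between these animals only.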
